A study of Mus musculus with 2 samples.

Results

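A set of 10 genes of prostaglandin synthesis, transport and reception was followed across lung mesenchymal cell classes after bleomycin or saline. They were Ptgs1, Ptgs2, Ptges, Ptgis, Slco2a1, Hpgd, Ptger2, Ptger3, Ptger4 and Ptgfr, taken by symbol, and all 10 were found among the 32285 features of the count tables. The cells came from mice of the genotype Lepr-CreERT2;Rosa26-tdtomato aged 8 to 10 weeks, which had received bleomycin, a drug that injures the lung epithelium and is used to model lung fibrosis, or saline. In both groups the cells were sorted from digested lung as live, tdTomato-positive and negative for CD45, EpCAM and CD31, which mark leukocytes, epithelium and endothelium, and each group was profiled as 1 droplet library of 3' transcript ends. The Cre driver limits the population to cells that had used the leptin receptor gene, so mesenchymal cells without that history are not represented. The labels give neither the number of mice behind a library nor the dose of bleomycin, and say nothing of when tamoxifen was given or the lungs were taken.

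Prostaglandins are short-lived lipid signals made from arachidonic acid, which phospholipases free from membranes. The cyclooxygenases Ptgs1 and Ptgs2 turn it into an unstable precursor that terminal synthases such as Ptges and Ptgis convert to prostaglandin E2 or prostacyclin. The carrier Slco2a1 takes prostaglandins into cells, where Hpgd inactivates them, and receptors on the same or neighbouring cells read those that remain outside. In lung, prostaglandin E2 is known to hold back fibroblast growth and collagen production through receptors that raise cyclic AMP, and prostaglandin F2 acts through Ptgfr.

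The bleomycin library held 10138 barcodes and 134732429 UMIs (counted transcript molecules), with a median of 11662 UMIs per barcode, against 8396 barcodes, 60937359 UMIs and a median of 6762 in the saline library. After filtering, 10001 bleomycin and 8284 saline cells were used. Of the cell barcodes, 25 occurred in both libraries, 24 of them among the cells used, which is 0.240% of bleomycin and 0.290% of saline cells. Classes were rebuilt from the counts and named by marker genes, without the 10 genes among the genes used for clustering. Mesenchymal classes held 9626 bleomycin and 8100 saline cells. The mixture of classes differed widely: inflammatory fibroblast-like cells made up 40.5% of bleomycin and 1.26% of saline cells, fibrotic fibroblast-like cells 23.4% of bleomycin and 0.193% of saline cells, and alveolar fibroblast-like cells 1.23% of bleomycin and 40.0% of saline cells. These shares depend on the clustering: at a finer resolution a further cluster of 1668 bleomycin and 66 saline cells took the alveolar fibroblast name. A further cluster led by Tpm3-rs7 and Cxcl9 held 1.74% of bleomycin and 28.9% of saline cells and stayed unnamed, although it had 5 of 12 alveolar fibroblast markers raised. The inflammatory and fibrotic clusters were almost wholly of the bleomycin library, so they may be that library rather than a cell type. Despite the sort, both libraries held a cluster with alveolar and airway epithelial genes (156 bleomycin and 112 saline cells), here called epithelial cells, and small clusters with mesothelial, endothelial and B or plasma cell genes.

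Levels are given as CPM (a gene's UMIs scaled to the same total in every sum), summed over the cells of a class, and each ratio is bleomycin over saline with its exact 95% interval in brackets. With 1 library per treatment there was no spread between animals and no test, and the intervals cover counting error only. A gene was called higher or lower when it was at least 2-fold apart, reached 10 CPM in the higher library and had an interval clear of 1. CPM of 3' ends were compared between libraries and classes for each gene, not between genes. In sums over a class, fewer cells using a gene and less RNA per cell cannot be told apart.

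Over all mesenchymal cells, the cyclooxygenase Ptgs2, the carrier Slco2a1 and the receptor Ptger3 were higher in the bleomycin library, and the receptors Ptger4 and Ptgfr were lower. Slco2a1 reached 48.8 CPM in bleomycin cells and 2.09 CPM in saline cells, a ratio of 23.4 [19.5–28.1]. Ptgs2 was at 560.5 CPM in bleomycin and 232.7 CPM in saline cells, a ratio of 2.41 [2.37–2.45]. Ptger3 was at 14.3 CPM in bleomycin and 4.91 CPM in saline cells, a ratio of 2.91 [2.57–3.31]. These 3 genes thus differed by very unlike amounts, and the largest ratio stood on 6361 bleomycin UMIs and 123 saline UMIs. Ptgfr was at 3.90 CPM in bleomycin and 23.0 CPM in saline cells, a ratio of 0.169 [0.153–0.188]. Ptger4 was at 23.9 CPM in bleomycin and 53.1 CPM in saline cells, a ratio of 0.450 [0.428–0.473].

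Of the 10 genes, 8 reached 10 CPM in at least 1 library, with 3 called higher and 2 lower. Over all 8017 genes measured at that level, 11.5% were called, 5.56% higher and 5.91% lower. Slco2a1 and Ptger3 passed the minimum only through the bleomycin library. Ranked by ratio among those 8017 genes, Slco2a1 was number 21 from the top, Ptger3 number 246 and Ptgs2 number 325, and Ptgfr was number 7991. Ptgs1 (28.1 CPM in bleomycin and 16.6 CPM in saline cells, ratio 1.69 [1.58–1.82]), Ptges (79.5 CPM in bleomycin and 59.1 CPM in saline cells, ratio 1.35 [1.30–1.40]) and Ptgis (286.7 CPM in bleomycin and 374.5 CPM in saline cells, ratio 0.765 [0.753–0.778]) were less than 2-fold apart. Hpgd (3.81 CPM in bleomycin and 9.74 CPM in saline cells) and Ptger2 (9.20 CPM in bleomycin and 7.87 CPM in saline cells) stayed under the minimum.

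Much of this moved with the mixture of classes. When the level of each cluster in bleomycin was weighted by that cluster's share of saline UMIs, no member met all 3 conditions: the ratio was 1.46 for Ptgs2, 4.43 for Slco2a1 (at 9.27 CPM, under the minimum), 1.60 for Ptger3 (at 7.88 CPM), 0.736 for Ptger4 and 0.668 for Ptgfr. Ptgs1 (1.70) and Ptges (1.32) kept nearly the same ratio, while Ptgis turned to 1.12, above 1. Comparisons within classes therefore carry the rest of the account.

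**Figure D1:**
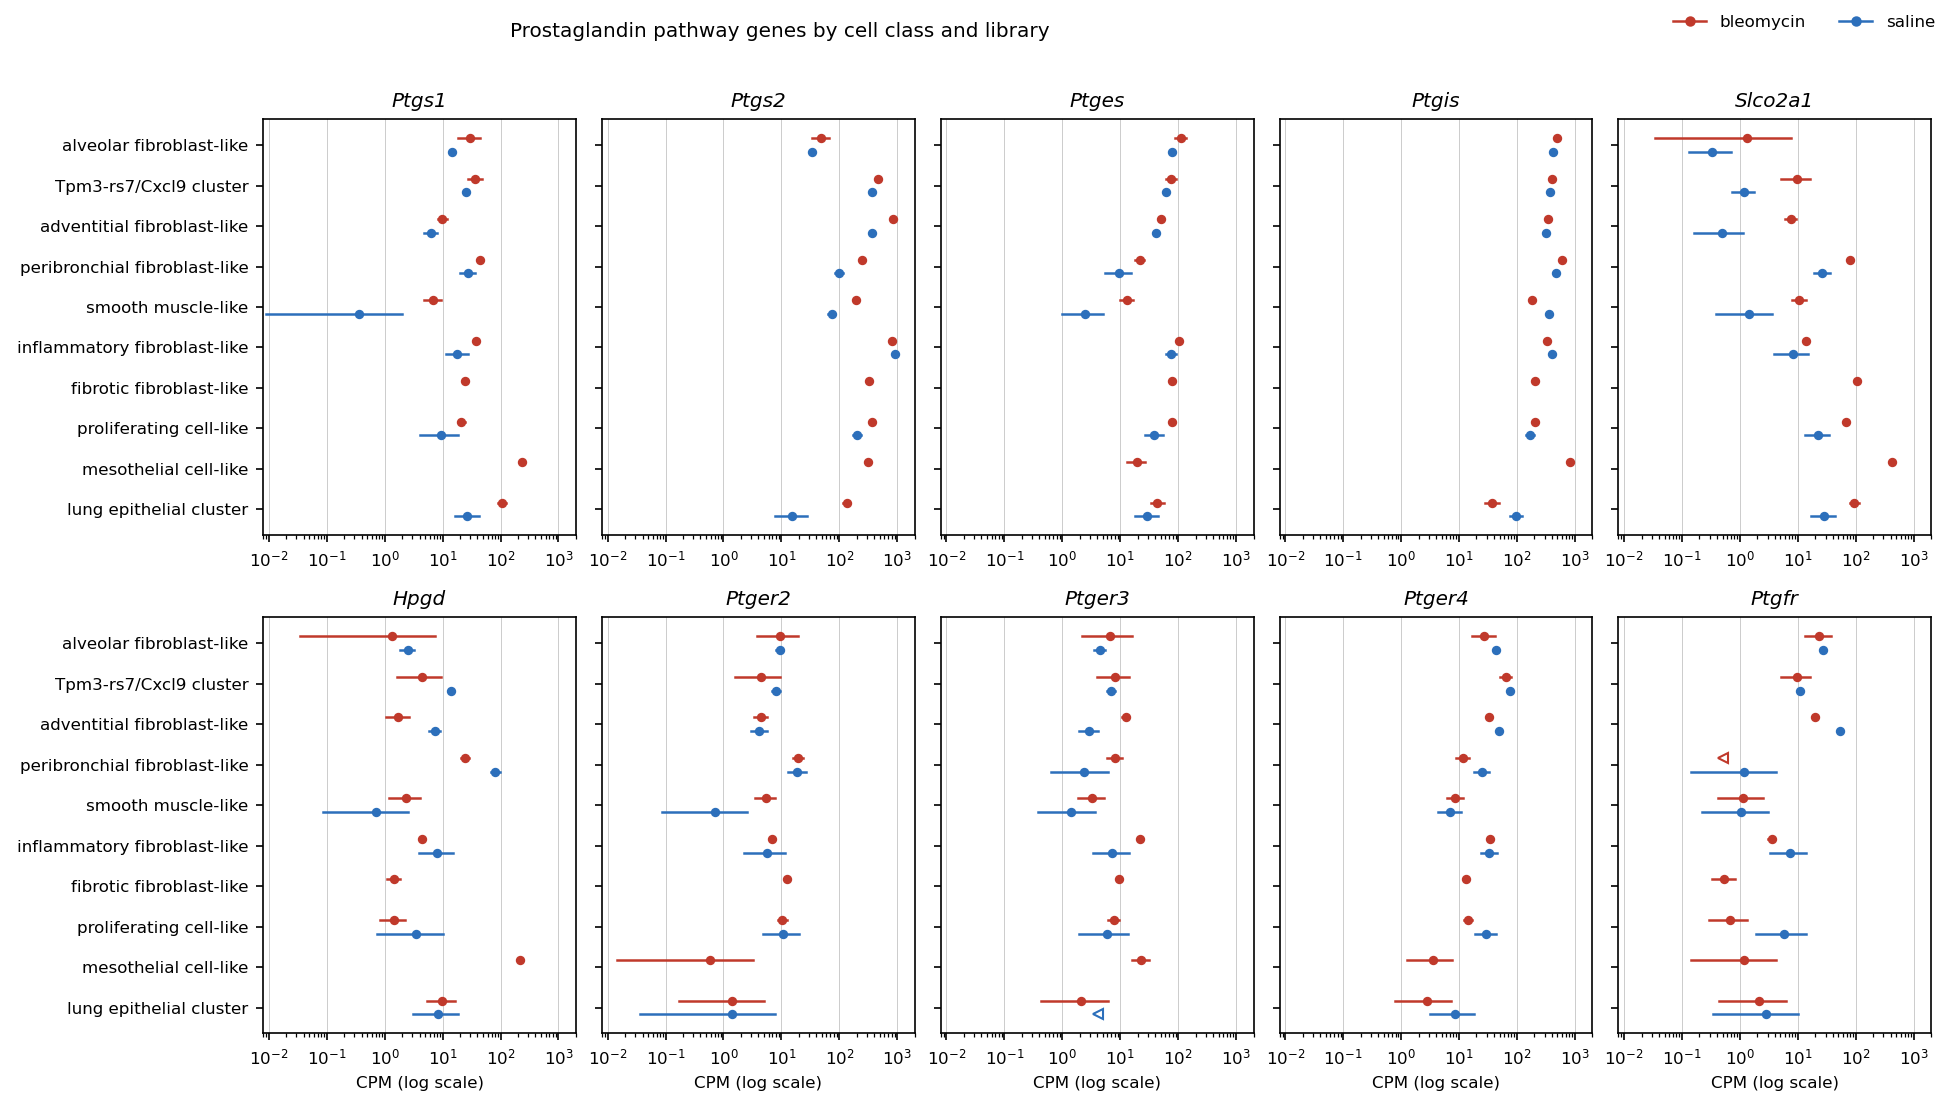
Level of each of the 10 genes in CPM (log axis) in every cell class, with bleomycin in red and saline in blue and bars giving the 95% counting interval; open triangles mark classes with 0 UMIs, drawn at 3 counts, and classes under 50 cells in a library are not drawn. Slco2a1 in mesothelial-like (419 CPM) and fibrotic fibroblast-like (105 CPM) cells and Ptgfr in adventitial and alveolar fibroblast-like cells stand out among the classes.

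Within classes, peribronchial fibroblast-like cells, which ring the airways, held the most members called. Of 8 members measured there, 3 were higher and 2 lower, with 13.2% of all measured genes called in that class (6.42% higher and 6.8% lower). Smooth muscle-like cells had 3 of 4 measured members higher and none lower (6.75% of all measured genes called, 4.46% higher and 2.29% lower). Adventitial fibroblast-like cells, which lie around vessels and airways, had 2 of 6 higher and 1 lower (6.78% called, 3.19% higher and 3.6% lower). Several of these members passed the 10 CPM minimum only through the bleomycin library, where they were high. Ptges in peribronchial and smooth muscle-like cells, Slco2a1 in smooth muscle-like cells, Ptger3 in adventitial and inflammatory cells and Ptgs1 in proliferating cells are among them. The counts are therefore a description and are not set against the share of all genes.

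Proliferating cells had 2 of 7 members higher and 1 lower (11.2% of all measured genes called, 3.61% higher and 7.62% lower). Inflammatory fibroblast-like cells had 2 of 7 higher and none lower (5.47% called, 3.05% higher and 2.41% lower). Alveolar fibroblast-like cells had 1 of 6 higher and none lower (4.4% called, 2.5% higher and 1.9% lower). The Tpm3-rs7 and Cxcl9 cluster had 1 of 7 lower and none higher (3.09% called, 1.65% higher and 1.44% lower). The epithelial cells had 3 of 5 higher and 1 lower (14.9% called, 8.85% higher and 6.03% lower). Fibrotic fibroblast-like cells, with 16 saline cells, and mesothelial-like cells, with 42, were under the minimum of 50 cells per library and were not compared.

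**Figure D2:**
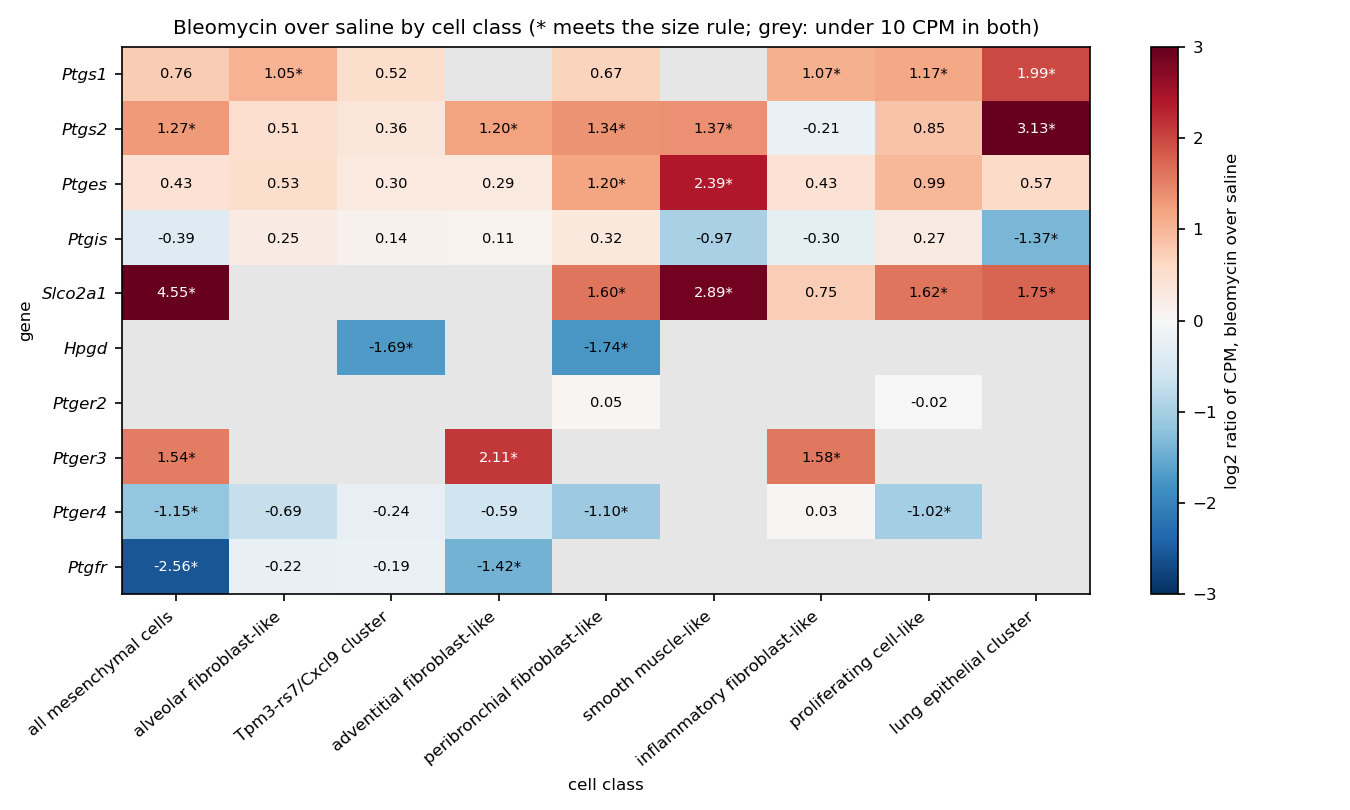
Log2 ratio of CPM, bleomycin over saline, for each gene (rows) over all mesenchymal cells and in each class compared (columns), coloured from blue (lower in bleomycin) to red (higher), with stars for calls and grey where both libraries were under 10 CPM. Stars for higher levels lie in the rows of the cyclooxygenases, Ptges, Slco2a1 and Ptger3, and stars for lower levels in those of Hpgd, Ptger4 and Ptgfr, with a further 1 for Ptgis in the epithelial cells.

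Promoter windows of 4 of the 5 members called over all mesenchymal cells are shown, Slco2a1 and Ptgs2 among the higher and Ptger4 and Ptgfr among the lower. That of Ptger3 is not printed because its RefSeq start matched no annotated transcript. Each is the 250 bases before the RefSeq transcript start (GRCm38.p6), read 5′ to 3′ on the strand of the gene, with motif matches in capitals. Slco2a1 lies at chr9:103008237-103008486 (+ strand; this start is inside the annotated gene span), Ptgs2 at chr1:150099781-150100030 (+ strand), Ptger4 at chr15:5244188-5244437 (- strand) and Ptgfr at chr3:151837529-151837778 (- strand).
Slco2a1: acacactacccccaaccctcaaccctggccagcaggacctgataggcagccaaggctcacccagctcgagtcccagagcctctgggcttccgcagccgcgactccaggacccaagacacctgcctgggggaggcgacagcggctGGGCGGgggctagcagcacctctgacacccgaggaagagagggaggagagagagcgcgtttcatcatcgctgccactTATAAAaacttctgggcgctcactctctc
Ptgs2: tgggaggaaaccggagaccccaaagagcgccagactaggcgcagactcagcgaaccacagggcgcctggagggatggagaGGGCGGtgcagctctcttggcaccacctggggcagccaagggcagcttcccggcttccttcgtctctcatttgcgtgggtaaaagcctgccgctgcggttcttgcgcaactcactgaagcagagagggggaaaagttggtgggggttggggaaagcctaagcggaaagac
Ptger4: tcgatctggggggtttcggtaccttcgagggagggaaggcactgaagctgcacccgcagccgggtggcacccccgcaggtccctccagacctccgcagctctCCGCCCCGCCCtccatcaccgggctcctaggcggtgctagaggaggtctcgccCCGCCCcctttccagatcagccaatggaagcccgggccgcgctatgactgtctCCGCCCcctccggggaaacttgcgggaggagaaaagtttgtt
Ptgfr: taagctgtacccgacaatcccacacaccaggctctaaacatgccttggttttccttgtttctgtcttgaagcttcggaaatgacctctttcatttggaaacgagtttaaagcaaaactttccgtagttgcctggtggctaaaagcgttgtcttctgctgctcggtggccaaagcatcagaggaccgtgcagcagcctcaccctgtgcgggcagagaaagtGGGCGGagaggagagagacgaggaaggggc
The motifs searched on both strands were TATAAA (the TATA box), TGACGT (part of the cyclic AMP response element), TGANTCA (AP-1), GGGCGG (the GC box, printed as CCGCCC where it lies on the other strand) and CACGTG (the E-box). TATAAA was found in Slco2a1, beginning 29 bases before the start, and not in the other 3, and 12.4% of all 32851 RefSeq promoter windows hold it. GGGCGG was found in all 4, once each except in Ptger4, which holds 4 matches, the first 2 of them overlapping by 1 base; 32.7% of windows hold it. The cyclic AMP element part, the AP-1 motif and the E-box, held by 6.47%, 6.75% and 6.02% of windows, were not found in these 4. A match describes letters in a window, not a bound site. A motif not found may still lie before the window or past the start used, which were not searched, so the gene may not lack it. Of the 10 genes, 9 had a window; Ptgis had none.

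Ptgs2 (ENSMUSG00000032487, chr1:150100031-150108227, + strand, mm10) encodes the inducible cyclooxygenase, also known as COX-2, whose transcript answers cytokines, growth factors and handling of tissue within a short time. Adventitial fibroblast-like cells had 846 CPM in bleomycin and 368 CPM in saline, a ratio of 2.30 [2.21–2.38]. Of their member clusters, cluster 0 had 559 CPM in bleomycin and 310 CPM in saline, a ratio of 1.81 [1.71–1.91], and cluster 3 had 1025 CPM in bleomycin and 543 CPM in saline, a ratio of 1.89 [1.78–2.00]. Neither cluster alone was 2-fold apart, and 777 of the 1251 bleomycin cells against 470 of the 1423 saline cells came from cluster 3, where the level was higher in both libraries. Smooth muscle-like cells had 190 CPM in bleomycin and 73.9 CPM in saline, a ratio of 2.58 [2.22–3.01], and peribronchial fibroblast-like cells had 247 CPM in bleomycin and 97.8 CPM in saline, a ratio of 2.53 [2.15–2.99]. The smooth muscle ratio was 1.73 without the cells of highest doublet score and 1.95 as a mean over cells, and the peribronchial ratio was 1.59 at a finer clustering; each ends the call.

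Inflammatory fibroblast-like cells met no call for Ptgs2. They had 796.5 CPM in bleomycin and 919 CPM in saline, a ratio of 0.867 [0.817–0.921], with 104 saline cells. At the finer clustering, where that name covered other cells, the ratio was 2.10 and met the call. Ptgs2 was 2.46-fold [2.41–2.51] higher in inflammatory than in fibrotic fibroblast-like cells of the bleomycin library, where fibrotic cells had 324 CPM. The bleomycin order was adventitial, then inflammatory, then B or plasma cells together with the Tpm3-rs7 and Cxcl9 cluster (465 CPM), then proliferating cells (362 CPM). The B or plasma cluster also carried fibroblast RNA, with Col1a1 at 2356 CPM and Col1a2 at 2670 CPM over both libraries. The part of such RNA in its Ptgs2 level was not tested. Alveolar fibroblast-like cells were lowest of the mesenchymal classes, with 48.5 CPM in bleomycin and 34.1 CPM in saline. Their ratio of 1.42 [0.986–1.98] became 8.14 and met the call at the finer clustering. In saline, the Tpm3-rs7 and Cxcl9 cluster (362 CPM) was 10.6-fold [9.82–11.5] above alveolar fibroblast-like cells, whose marker list it shared in part, and did not stand apart from adventitial cells beyond counting error.

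Ptgs2 was uneven from cell to cell: single mesenchymal cells held up to 206 UMIs in bleomycin and 102 in saline. At the finer clustering, a cluster of 1030 bleomycin and 53 saline cells led by Cxcl2, Ptgs2 and Lif had 1383 CPM in bleomycin and 1431 CPM in saline; Ptgs2 is among the genes that set it apart, so this is a description. Since Ptgs2 is itself an early-response gene, 18 early-response and heat-shock genes known to answer tissue dissociation were summed beside it. Their sum was 22309 CPM in bleomycin and 32542 CPM in saline mesenchymal cells, with 4 of 18 called lower (Jun, Egr1, Atf3 and Hspa1b), none higher, and a median log2 ratio of -0.65 against -0.03 for all genes, of which 5.91% were called lower and 5.56% higher. By class, the sum was lower in bleomycin in some and higher in others. It was 23542 CPM in bleomycin and 28173 CPM in saline adventitial cells, 29152 CPM in bleomycin and 33372 CPM in saline smooth muscle-like cells, and 24362 CPM in bleomycin and 33557 CPM in saline peribronchial cells. In inflammatory cells, where Ptgs2 met no call, the sum was 25892 CPM in bleomycin and 23809 CPM in saline. Ptgs2 also met no call in alveolar fibroblast-like (ratio 1.42), Tpm3-rs7 and Cxcl9 (1.28) and proliferating cells (1.80). The sum was 41302 CPM in bleomycin and 38280 CPM in saline alveolar fibroblast-like cells. It was 32924.5 CPM in bleomycin and 29839 CPM in saline for the Tpm3-rs7 and Cxcl9 cluster. Proliferating cells had 16047 CPM in bleomycin and 17853 CPM in saline. The part of tissue dissociation in the Ptgs2 values was not tested.

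Ptgs1 (ENSMUSG00000047250, chr2:36230426-36252272, + strand) encodes the cyclooxygenase that most tissues use at rest. Its ratio was above 1, with the interval clear of 1, in all 7 mesenchymal classes compared, though only 3 met the call. The pooled adventitial ratio of 1.57 [1.15–2.15] was 1.98 [1.32–2.99] in cluster 0 and 1.17 [0.699–2.07] in cluster 3, where the interval holds 1. Inflammatory fibroblast-like cells had 37.5 CPM in bleomycin and 17.9 CPM in saline, a ratio of 2.09 [1.38–3.35], and 3.65 at the finer clustering. Proliferating cells had 21.2 CPM in bleomycin and 9.40 CPM in saline, a ratio of 2.25 [1.13–5.27]. Alveolar fibroblast-like cells had 29.6 CPM in bleomycin and 14.3 CPM in saline, a ratio of 2.07 [1.28–3.19], which fell under 2 in 4 of the alternative settings (1.71 to 1.99). In saline these 3 classes held 22, 8 and 300 Ptgs1 UMIs, so the first pair of ratios rests on few molecules. The highest levels lay outside the fibroblasts, at 234 CPM in bleomycin mesothelial-like cells and 106 CPM in bleomycin against 26.7 CPM in saline epithelial cells. Smooth muscle-like cells were lowest in both libraries, with 36 UMIs (6.87 CPM) in bleomycin and 1 UMI (0.353 CPM) in saline (called higher only at the finer clustering, at 3.21), though in bleomycin they did not stand apart from adventitial cells.

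Ptges (ENSMUSG00000050737, chr2:30889471-30929863, - strand) encodes the microsomal synthase that makes prostaglandin E2 from the cyclooxygenase product. Its ratio was also above 1 in all 7 classes, with 6 intervals clear of 1, and was mostly small. The adventitial ratio was 1.23 [1.08–1.39] with both clusters pooled. It was 0.822 [0.666–1.01] in cluster 0 and 1.10 [0.911–1.32] in cluster 3, and both intervals hold 1. Alveolar fibroblast-like cells had the highest level, 112 CPM in bleomycin and 77.4 CPM in saline (ratio 1.44), and did not stand apart from inflammatory cells, with 102 CPM in bleomycin and 75.8 CPM in saline (ratio 1.35). Peribronchial and smooth muscle-like cells, both low in Ptges, met the call. Peribronchial cells had 21.6 CPM in bleomycin and 9.42 CPM in saline, a ratio of 2.29 [1.36–4.13], and smooth muscle-like cells 12.99 CPM in bleomycin and 2.47 CPM in saline, a ratio of 5.25 [2.41–13.5]. The saline values stand on 16 and 7 UMIs. As a mean over cells the peribronchial ratio was 1.63, and the smooth muscle level lost the call in 2 alternatives by dropping under 10 CPM. In bleomycin, Ptges was 4.73-fold [3.97–5.69] higher in inflammatory than in peribronchial cells.

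Ptgs2 and Ptges can be read in the same cells. With every cell thinned to 2000 UMIs, a Ptges UMI was found in 19.7% [18.0–21.6] of 1895 bleomycin inflammatory cells with a Ptgs2 UMI, and in 15.2% [13.7–16.7] of 2138 without. In saline inflammatory cells the shares were 20% [10.03–33.7] of 50 cells with a Ptgs2 UMI and 11.1% [4.19–22.6] of 54 without, and in bleomycin fibrotic cells 13.4% [10.9–16.3] of 640 cells with and 11.3% [9.84–12.9] of 1669 without. The bleomycin inflammatory intervals do not overlap; those of the other 2 pairs do. Over all mesenchymal cells the shares were 15.4% [14.2–16.6] with and 11.3% [10.5–12.1] without in bleomycin, and 9.41% [7.87–11.1] with and 10.5% [9.73–11.2] without in saline. Depth per cell was held equal, while differences among cells of 1 class were not tested.

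Ptgis (ENSMUSG00000017969, chr2:167191805-167240604, - strand) encodes prostacyclin synthase, whose product relaxes smooth muscle and keeps platelets apart. Peribronchial fibroblast-like cells had 592 CPM in bleomycin and 476 CPM in saline, a ratio of 1.24 [1.15–1.35], the highest of the mesenchymal classes in both libraries. Smooth muscle-like cells had 182 CPM in bleomycin and 357 CPM in saline, a ratio of 0.510 [0.467–0.558], just short of the 2-fold bound, and 0.460 to 0.786 over 7 alternatives. It passed the bound when CPM were rescaled (0.491) and without the cells of highest doublet score (0.460), and was farthest from it at the finer clustering (0.786). Inflammatory cells had 324 CPM in bleomycin and 399 CPM in saline, a ratio of 0.812 [0.743–0.891]. The other 4 classes compared had ratios of 1.08 to 1.21, so the lower total in bleomycin was not seen in most classes. Adventitial cells, at 1.08 when pooled, had 1.15 [1.09–1.22] in cluster 0 and 1.57 [1.42–1.73] in cluster 3. In the same smooth muscle-like cells the 11 smooth muscle markers summed to 28439 CPM in bleomycin and 46550 CPM in saline; their part in the Ptgis value was not tested. Mesothelial-like cells of the bleomycin library had 831 CPM. No transcript overlaps Ptgis on its own strand, and 1110018N20Rik on the opposite strand had 2.16 CPM in bleomycin and 5.83 CPM in saline.

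Slco2a1 (ENSMUSG00000032548, chr9:102988712-103096002, + strand) encodes the prostaglandin transporter PGT, and its difference was the largest of the 10. Of its mesenchymal UMIs in the bleomycin library, 65.1% came from fibrotic fibroblast-like cells, which held 30.3% of all mesenchymal UMIs. In the saline library 36.6% came from peribronchial cells, which held 2.89% of UMIs. Fibrotic fibroblast-like cells, named by Cthrc1, Postn and collagen genes, had 105 CPM [102–108] in bleomycin, 7.66-fold [7.08–8.31] above inflammatory cells of the same library. The 16 saline cells of that cluster held 9 Slco2a1 UMIs, or 118 CPM [54.0–224], too few cells to compare.

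Classes present in both libraries also had more Slco2a1 in bleomycin. Peribronchial cells had 80.5 CPM in bleomycin and 26.5 CPM in saline, a ratio of 3.04 [2.24–4.22]. Proliferating cells had 68.5 CPM in bleomycin and 22.3 CPM in saline, a ratio of 3.07 [1.95–5.12]. Smooth muscle-like cells had 55 UMIs (10.5 CPM) in bleomycin and 4 UMIs (1.41 CPM) in saline, a ratio of 7.43 [2.74–28.2], which sat under the 10 CPM minimum in 3 alternatives (ratios 3.86 to 4.42). The ratio was above 1 in all 7 classes, with 5 intervals clear of 1. Inflammatory cells had 13.7 CPM in bleomycin and 8.15 CPM in saline, a ratio of 1.68 [0.908–3.52] on 10 saline UMIs. Over 7 alternatives that ratio ran from 1.03 with no doublets left out to 52.9 at the finer clustering, where the name covered other cells, and 3 of them met the call. Adventitial cells, with 96 UMIs (7.46 CPM) in bleomycin and 5 UMIs (0.492 CPM) in saline, and alveolar fibroblast-like cells, with 1 UMI in bleomycin and 7 UMIs in saline, stayed under the minimum. In the 3 classes called, the 12 fibrotic fibroblast markers summed to 10488 CPM in bleomycin and 2415 CPM in saline peribronchial cells, 19295 CPM in bleomycin and 5209 CPM in saline proliferating cells, and 5704 CPM in bleomycin and 1746 CPM in saline smooth muscle-like cells. Of them Spp1 was at 0 in saline peribronchial, Grem1 and Lrrc15 in saline proliferating and Lrrc15 in saline smooth muscle-like cells; their part in the Slco2a1 ratios was not tested.

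Other cell types in these libraries also used Slco2a1. Mesothelial-like cells had 419 CPM [389–450] in bleomycin and 482 CPM [420–551] in the 42 saline cells, and the endothelial cluster 386 CPM in 32 bleomycin cells and 604 CPM in 12 saline cells. In fibrotic fibroblast-like cells of the bleomycin library, the 9 mesothelial markers summed to 19.5 CPM with Lrrn4 and Bnc1 at 0, against 8057 CPM in mesothelial-like cells, and the 10 vascular endothelial markers summed to 49.6 CPM with none at 0. Over all mesenchymal cells these sums were 33.8 CPM in bleomycin and 72.2 CPM in saline for the mesothelial list (Bnc1 at 0 in both) and 51.1 CPM in bleomycin and 32.9 CPM in saline for the vascular list. The part of such RNA in the Slco2a1 values was not tested.

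**Figure D3:**
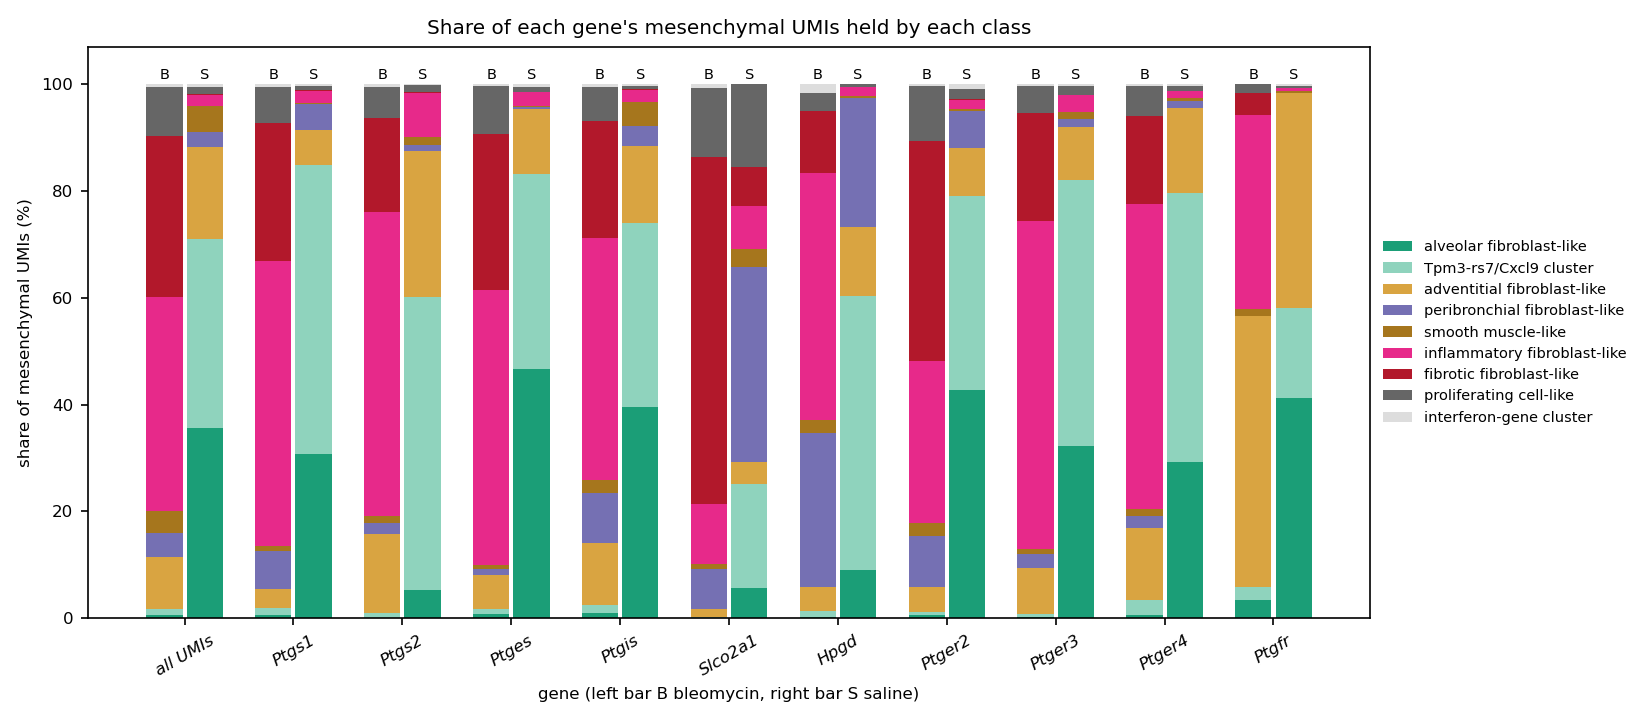
Share of each gene's mesenchymal UMIs that came from each class, in percent, with bleomycin (B) left of saline (S) for every gene. Fibrotic fibroblast-like cells give 65.1% of Slco2a1 in bleomycin, inflammatory cells 57.0% of Ptgs2, and adventitial cells 50.8% of Ptgfr in bleomycin and 40.3% in saline.

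Hpgd (ENSMUSG00000031613, chr8:56294585-56321043, + strand) encodes the NAD-dependent dehydrogenase that inactivates prostaglandins after uptake. Its level was highest in peribronchial cells among the mesenchymal classes. Peribronchial cells had 24.3 CPM in bleomycin and 81.3 CPM in saline, a ratio of 0.299 [0.235–0.380]. In saline this was 5.74-fold [4.65–7.05] above the next class, the Tpm3-rs7 and Cxcl9 cluster. That cluster had 4.39 CPM (6 UMIs) in bleomycin and 14.2 CPM (294 UMIs) in saline, a ratio of 0.310 [0.113–0.683]. Peribronchial cells were not the main source of Hpgd UMIs. They held 138 of the 573 mesenchymal UMIs in saline, fewer than that cluster. In bleomycin they held 143 of 496, against 230 in inflammatory cells. In peribronchial cells Slco2a1 was thus higher and Hpgd lower in bleomycin. Outside the mesenchyme, mesothelial-like cells had 216 CPM in bleomycin and 373 CPM in saline, and the endothelial cluster 293 CPM in bleomycin and 1828 CPM in saline. In peribronchial cells the mesothelial markers summed to 6.97 CPM in bleomycin and 8.83 CPM in saline and the vascular markers to 73.7 CPM in bleomycin and 61.3 CPM in saline. The 8 peribronchial markers themselves summed to 3423 CPM in bleomycin and 6527 CPM in saline cells of that class, with none at 0; their part in the Hpgd value was not tested. The peribronchial cluster was deeper in bleomycin, with a median of 8957 UMIs against 3385 in saline, and its leading genes include smooth muscle markers such as Cnn1; at the finer clustering 163 bleomycin and 78 saline cells split from it as smooth muscle-like, and the ratio of Hpgd was 0.266 to 0.388 in the 7 alternatives run.

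The receptors Ptger4 and Ptger2 couple to the G protein that raises cyclic AMP, the arm through which prostaglandin E2 is known to restrain fibroblasts. Ptger4 (ENSMUSG00000039942, chr15:5206661-5244187, - strand) was highest in the Tpm3-rs7 and Cxcl9 cluster in both libraries, with 64.4 CPM in bleomycin and 76.0 CPM in saline (ratio 0.848 [0.676–1.05]). Peribronchial cells had 11.6 CPM in bleomycin and 24.7 CPM in saline, a ratio of 0.467 [0.313–0.703], and proliferating cells 14.4 CPM in bleomycin and 29.4 CPM in saline, a ratio of 0.492 [0.322–0.781]. The proliferating call was lost in 3 alternatives (0.533 to 0.580). Adventitial cells had 32.4 CPM in bleomycin and 48.7 CPM in saline, a ratio of 0.665 [0.583–0.760], and alveolar fibroblast-like cells 26.9 CPM in bleomycin and 43.5 CPM in saline, a ratio of 0.619 [0.376–0.961], both short of the 2-fold bound. Ptger4 was thus lower in bleomycin with an interval clear of 1 in 4 of 7 classes. Inflammatory cells had 34.1 CPM in bleomycin and 33.4 CPM in saline, a ratio of 1.02 [0.749–1.43], and 0.388 at the finer clustering.

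Within the bleomycin library, Ptger4 was 2.63-fold [2.38–2.91] higher in inflammatory than in fibrotic fibroblast-like cells, which had 12.97 CPM. Fibrotic cells were the class with most Slco2a1 of the fibroblasts and among the lowest in Ptger4. Ttc33 lies across Ptger4 on the opposite strand, with 15.9 CPM in bleomycin and 20.5 CPM in saline, and whether counting used strand is not stated in the sources used here, so a part of either gene's reads may belong to the other. Ptger2 (ENSMUSG00000037759, chr14:44988195-45003820, + strand) was low throughout. Peribronchial cells were highest with 19.5 CPM in bleomycin and 18.8 CPM in saline, a ratio of 1.04 [0.695–1.59], and proliferating cells had 10.4 CPM in bleomycin and 10.6 CPM in saline, a ratio of 0.985 [0.502–2.20]; both intervals allow differences of about 1.5-fold or more. In bleomycin, fibrotic cells had 12.5 CPM, 1.79-fold [1.56–2.06] above inflammatory cells, the reverse of the order for Ptger4.

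Ptger3 (ENSMUSG00000040016, chr3:157566892-157645888, + strand) encodes the receptor of prostaglandin E2 that mainly lowers cyclic AMP. Its ratio was above 1 in the 7 classes compared, with 3 intervals clear of 1. Inflammatory cells had 22.0 CPM in bleomycin and 7.34 CPM (9 UMIs) in saline, a ratio of 2.99 [1.57–6.57], and adventitial cells 12.4 CPM in bleomycin and 2.85 CPM in saline, a ratio of 4.33 [2.90–6.68]. Alveolar fibroblast-like cells met the Ptger3 call at the finer clustering only (3.85). In adventitial cluster 0 the ratio was 2.40 [1.39–4.25] and in cluster 3 it was 6.63 [2.96–18.4]. Both clusters thus moved the same way. In bleomycin, inflammatory cells stood 2.29-fold [2.04–2.58] above fibrotic cells. In adventitial cells, Ptger3 was called higher and Ptgfr lower, while Ptger4 (0.665) met no call.

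Ptgfr (ENSMUSG00000028036, chr3:151796502-151837630, - strand) encodes the receptor of prostaglandin F2, which couples to calcium release. Its level was highest in adventitial and alveolar fibroblast-like cells of both libraries. Adventitial cells had 20.1 CPM in bleomycin and 53.8 CPM in saline, a ratio of 0.373 [0.321–0.434], with 0.423 [0.340–0.523] in cluster 0 and 0.337 [0.266–0.428] in cluster 3. Alveolar fibroblast-like cells had 22.9 CPM in bleomycin and 26.7 CPM in saline, a ratio of 0.857 [0.496–1.39] on 17 bleomycin UMIs. At the finer clustering, with a further 1668 bleomycin and 66 saline cells under the alveolar name, the Ptgfr ratio there was 0.273 and was called lower. In saline the adventitial level was 2.01-fold [1.79–2.27] above the alveolar one, whereas in bleomycin these classes did not stand apart. Fibrotic cells of the bleomycin library, 2342 in number, held 21 Ptgfr UMIs (0.532 CPM), and the 596 bleomycin peribronchial cells held none, below a floor of 0.510 CPM at 3 counts, against 2 UMIs (1.18 CPM) in saline. Ptgfr was thus low in the classes that made up most of the bleomycin library.

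At 2000 UMIs per cell, 9473 bleomycin and 7956 saline mesenchymal cells could be compared, with 153 bleomycin and 144 saline cells left out as too shallow. A Ptgs2 UMI was found in 39.0% of bleomycin and 16.3% of saline cells, or 61.3% of bleomycin and 26.4% of saline cells before thinning. A Slco2a1 UMI was found in 6.57% of bleomycin and 0.352% of saline cells, or 23.1% of bleomycin and 1% of saline cells before thinning. Both genes were thus found in more bleomycin cells at equal depth. A Ptger4 UMI was found in 4.75% of bleomycin and 8.99% of saline cells (unthinned, 21.1% of bleomycin and 25.3% of saline). A Ptgfr UMI was found in 1.02% of bleomycin and 4.12% of saline cells (unthinned, 4.39% of bleomycin and 13.4% of saline). For Ptger3 the shares were 2.70% of bleomycin and 1.06% of saline cells (unthinned, 13.9% of bleomycin and 3.31% of saline). The shares of Ptger3, Ptger4 and Ptgfr thus ran the same way as their CPM.

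Epithelial cells served as background, with 137 bleomycin and 105 saline cells at that depth and median UMIs before thinning of 7746 in bleomycin and 5849 in saline. They held a Ptgs2 UMI in 9.49% of bleomycin and 0 of 105 saline cells (up to 2.86%), and a Ptger4 UMI in 0.730% of bleomycin and 0.952% of saline cells. The epithelial cells had Ptgs2 at 135 CPM in bleomycin and 15.5 CPM in saline, so they may be no background for that gene. No Ptger3 or Ptgfr UMI was found in them, which allows shares of up to 2.19% in bleomycin and 2.86% in saline. The saline Ptger3 share and the bleomycin Ptgfr share lie within those limits, which the small number of epithelial cells sets. Those shares are read neither as detection nor as absence. Slco2a1 was found in 16.1% of bleomycin and 3.81% of saline epithelial cells, so these cells are no background for it, and in 0 of 3269 saline alveolar fibroblast-like cells, which allows up to 0.0918%.

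The shares of the remaining genes were read in the same way. Ptges was found in 12.9% of bleomycin and 10.3% of saline mesenchymal cells (unthinned, 47.4% of bleomycin and 29.5% of saline), with 5.84% of bleomycin and 2.86% of saline epithelial cells. Ptgis was found in 40.9% of bleomycin and 50.4% of saline cells (unthinned, 84.7% of bleomycin and 82.4% of saline), with 5.11% of bleomycin and 13.3% of saline epithelial cells. Both shares exceed those of the epithelial cells. These had Ptges at 43.8 CPM in bleomycin and 29.5 CPM in saline, and Ptgis at 37.4 CPM in bleomycin and 96.9 CPM in saline. They may thus be no background for either gene. Ptgs1 was found in 5.66% of bleomycin and 3.02% of saline cells (unthinned, 26.3% of bleomycin and 9.84% of saline), below the 14.6% of bleomycin and 3.81% of saline epithelial cells. Epithelial cells had Ptgs1 at 106 CPM in bleomycin, so they are no background for it. Smooth muscle-like cells held it in 0.756% of bleomycin and 0 of 352 saline cells, which allows up to 0.852%. Hpgd was found in 0.845% of bleomycin and 1.82% of saline cells (unthinned, 3.51% of bleomycin and 4.99% of saline), against 0.730% of bleomycin and 2.86% of saline epithelial cells. Ptger2 was found in 1.49% of bleomycin and 1.56% of saline cells (unthinned, 10.4% of bleomycin and 5.14% of saline), within the limits of 2.19% and 2.86% that its absence from bleomycin and saline epithelial cells allows. At this depth the epithelial cells cannot decide whether Hpgd or Ptger2 exceeds background over all mesenchymal cells. They had Hpgd at 9.89 CPM in bleomycin and 8.43 CPM in saline, and their small number sets the Ptger2 limits.

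**Figure D4:**
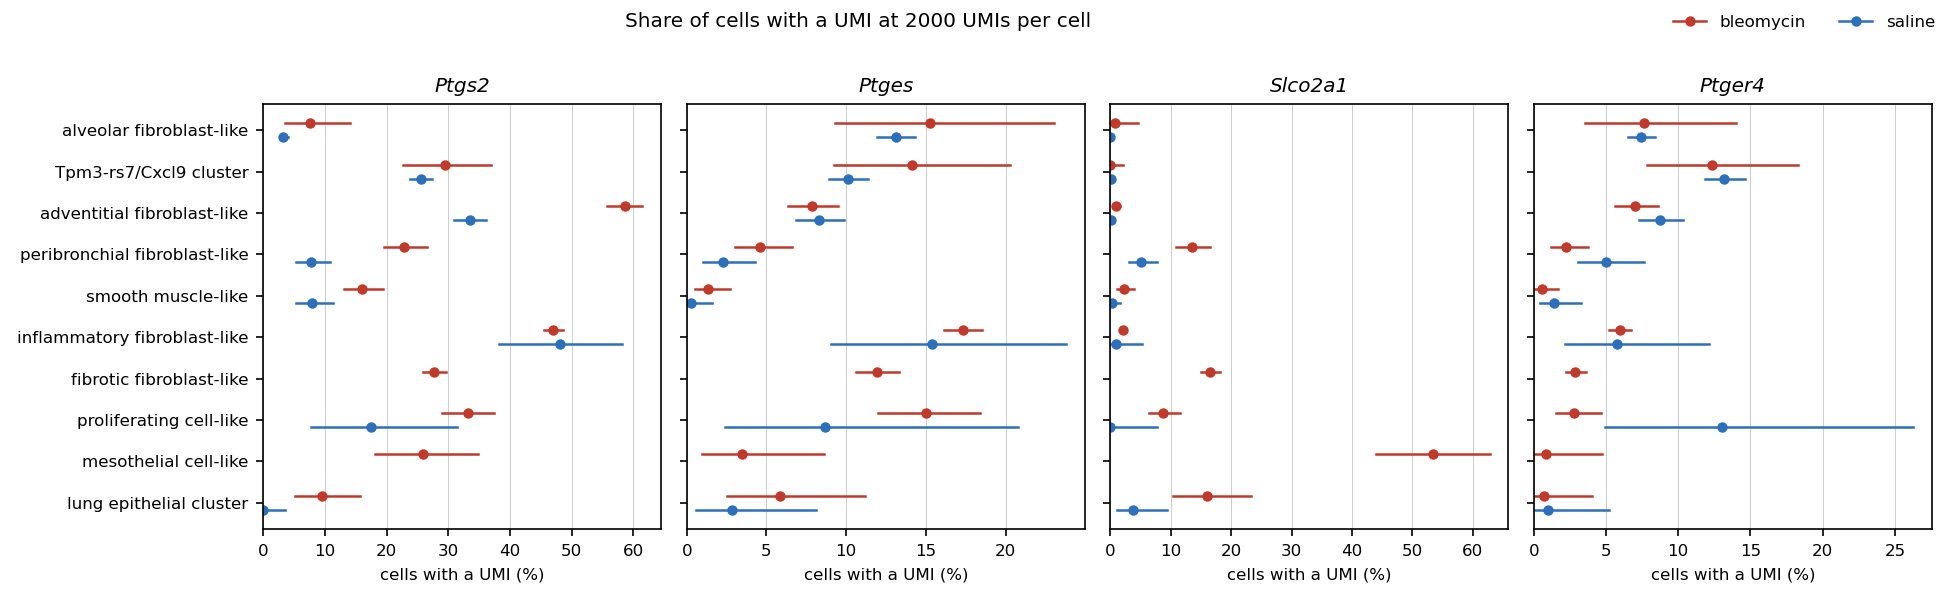
Share of cells with at least 1 UMI of Ptgs2, Ptges, Slco2a1 or Ptger4 after thinning to 2000 UMIs per cell, in percent, by class, with exact 95% intervals and bleomycin in red beside saline in blue. Ptgs2 was found in 58.6% of bleomycin and 33.5% of saline adventitial cells and in 47.0% of bleomycin and 48.1% of saline inflammatory cells, and Slco2a1 in 16.5% of bleomycin fibrotic cells and in 13.6% of bleomycin against 5.03% of saline peribronchial cells.

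The wider pathway was described with lists of genes over all mesenchymal cells. Of 24 other enzymes that release arachidonic acid or make and break prostanoids, 14 reached 10 CPM; 2 were higher, none lower, and the median log2 ratio was 0.11, against -0.03 for all genes. With 11.5% of all measured genes called, 2 of 14 is near the background. The 2 were Akr1b8, an aldo-keto reductase, with 64.7 CPM in bleomycin and 29.4 CPM in saline (ratio 2.20 [2.09–2.32]), and Mgll, the monoglyceride lipase, with 79.0 CPM in bleomycin and 39.2 CPM in saline (ratio 2.01 [1.92–2.11]). Within classes, none of this list was called in adventitial, alveolar fibroblast-like or Tpm3-rs7 and Cxcl9 cells. Inflammatory and smooth muscle-like cells each had 1 higher and none lower. Peribronchial cells had 2 higher and none lower, and proliferating cells 2 higher and 1 lower. The shares of all genes called in each class are given above. Pla2g4a, the phospholipase that releases arachidonic acid, had 18.8 CPM in bleomycin and 17.0 CPM in saline, and the constitutive synthase Ptges3 190 CPM in bleomycin and 236 CPM in saline. The enzymes that make prostaglandin D2 (Ptgds and Hpgds) and thromboxane (Tbxas1) were each under 1 CPM in both libraries. Of 8 other receptors and transporters, 3 reached 10 CPM and none was called. Of 15 leukotriene and other eicosanoid genes, 4 reached 10 CPM and none was called; Alox5, which begins leukotriene synthesis, had 4 UMIs in bleomycin and 0 in saline.

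Cyclic AMP is the second messenger of Ptger2 and Ptger4. Of 16 genes of cyclic AMP synthesis, breakdown and response, 15 reached 10 CPM; 3 were higher, 1 was lower and the median log2 ratio was 0.14, where 5.56% of all measured genes were higher and 5.91% lower. Areg, an EGF receptor ligand with other inducers besides cyclic AMP, had 45.5 CPM in bleomycin and 1.56 CPM in saline (ratio 29.1 [23.7–36.2]). Adenylate cyclase Adcy7 had 57.5 CPM in bleomycin and 18.5 CPM in saline (ratio 3.10), and the phosphodiesterase Pde10a 17.7 CPM in bleomycin and 6.26 CPM in saline (ratio 2.83). Areg and Pde10a passed the 10 CPM minimum only through the bleomycin library, where they were high. The count of higher genes is therefore a description and is not set against the share of all genes. The lower gene was the phosphodiesterase Pde4b, with 86.4 CPM in bleomycin and 203 CPM in saline (ratio 0.426). These pooled values also carry the differing mixture of classes. Within classes, none of this list was called in inflammatory, alveolar fibroblast-like or Tpm3-rs7 and Cxcl9 cells. Adventitial and proliferating cells each had 3 higher and none lower. Smooth muscle-like cells had 1 higher and none lower, and peribronchial cells 1 higher and 2 lower. The shares of all genes called in each class are given above. In peribronchial cells Areg had 427 UMIs (72.5 CPM) in bleomycin and 2 UMIs (1.18 CPM) in saline, a ratio of 61.6 [16.9–510], and in adventitial cells 14.2 CPM in bleomycin and 1.28 CPM in saline (ratio 11.1). Epithelial cells had 406 CPM in bleomycin and 23.9 CPM in saline, and the part of their RNA in the other classes was not tested.

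Genes with a like pattern were sought over 19 pseudobulks (sums of a class in 1 library, at least 50 cells) among 11376 genes, by Pearson's r of log2(CPM + 10). The points share 2 libraries and differ in depth, so r is a description. Ptgs2 was closest to Ptgfrn (r = 0.95), which encodes a membrane protein that binds the prostaglandin F2 receptor, followed by B4galt5 and Plac8 (both 0.92). Ptgfr was closest to Aspa (0.96), Clec14a (0.94) and Faim2 (0.93), and all 3 were highest in saline adventitial cells. Ptger4 was closest to Tnfsf13b (0.93), Mcl1 (0.91) and the growth factor Fgf10 (0.90), and Ptges to Ptk7 (0.93), Mrc2 (0.92) and Ufc1 (0.89). Slc25a13 (0.88) and Psma7 (0.86) were among the 3 genes closest to Slco2a1. Hpgd was closest to Nxnl2 (0.94), 1700023F06Rik (0.92) and Myl7 (0.90), and Ptgis to Ghr (0.90), Mapk9 (0.89) and Rarres2 (0.88). The 3 closest genes reached r of 0.82 for Ptgs1 (Anxa8, Sytl1 and Metap1), 0.84 to 0.87 for Ptger2 (Prelid2, Uggt2 and Bcas3os2) and 0.81 to 0.82 for Ptger3 (Fcor, Podn and Frrs1). Bleomycin mesothelial-like cells held the highest level of several of these partners, among them Nxnl2, Ghr and Fcor.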

How the data were processed

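Lung mesenchymal cells of 1 bleomycin-treated and 1 saline-treated group were profiled as 1 droplet library each (10x Genomics 3' v3 kit, per the labels' protocols). The deposited matrices hold raw UMI counts per gene and cell barcode, made with Cell Ranger 6.1.2 on mm10 per the submitters' processing notes. The labels do not say whether counting used strand. The deposited gene and barcode lists that belong to the matrices carry other values, names only.

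Cells with at least 500 genes and at most 10% mitochondrial UMIs were kept. Scrublet (scanpy 1.11.5, 7% expected doublets) marked 66 saline cells (0.790%), which were left out. It marked 0 of the 10001 bleomycin cells and so failed there, and doublets remain in that library. Both libraries were clustered together without integration (2000 variable genes, 30 principal components, 15 neighbours, Leiden resolution 0.5), with the 10 members kept out of the variable genes. A cluster was named when at least 3 markers of a type were raised 1.5-fold with 10 CPM added and the list's median log2 fold was at least 0.5. The adventitial class joins clusters 0 and 3. Cells were thinned to 2000 UMIs for shares.

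UMIs were summed per class and library, with exact Poisson intervals for levels, exact conditional binomial intervals for ratios and Clopper-Pearson intervals for shares, all at 95%. These cover counting error only. A value of 0 was given a floor of 3 counts. The named genes were all members, up to 8 genes of each pathway list with the largest ratio among those called, and the 3 genes most like each member, of which 1 is not reported here; genes of the lists quoted without a call were chosen after their values were seen. The members, marker lists and pathway lists were chosen with earlier results of these data known. The calling rule was tried on simulated Poisson counts drawn at whole-library totals. Such counts lack the unevenness from cell to cell, so they cannot show how well the intervals hold within classes. Promoter windows were taken from RefSeq on GRCm38.p6 and gene positions from GENCODE on the same build. Alternatives covered clustering resolution, cell filter, doublets, scaling, pooling, thresholds, thinning depth and the mixture of classes. One further alternative, which joins the Tpm3-rs7 and Cxcl9 cluster with the alveolar class, was chosen after seeing the data. Tools were Python 3.11.15, numpy 2.4.6, scipy 1.17.1 and pandas 2.3.3.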

Additional observations from a re-analysis of the deposited data

Results flagged for a closer look

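The ratio of Ptgs2 lay on opposite sides of 1 in 2 classes: it was 0.867 in inflammatory fibroblast-like cells and 2.58 in smooth muscle-like cells, each bleomycin over saline, with counting intervals that exclude 1. The difference between them was not tested, since each class had 1 library per treatment.

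The ratio of Ptgis was 0.510 in smooth muscle-like cells and 1.24 in peribronchial fibroblast-like cells, again with counting intervals on opposite sides of 1. This difference was not tested either.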

How the results depend on the processing

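No paired analysis was possible because each treatment had 1 library. Weighted by the saline mixture of clusters, the calls over all mesenchymal cells were lost for Ptgs2 (ratio 1.46), Slco2a1 (4.43, under 10 CPM), Ptger3 (1.60, under 10 CPM), Ptger4 (0.736) and Ptgfr (0.668), and the genes called numbered 99 higher and 53 lower, against 446 and 474 without the weighting. With each cell's CPM averaged, Ptger4 (0.534) lost its call and Hpgd (0.438) gained one. The counts of genes higher and lower were 1759 and 1903 without a CPM minimum, 180 and 214 at 50 CPM, and 985 and 1219 at 1.5-fold.

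In inflammatory cells at the finer clustering Ptgs2 (2.10) and Ptger4 (0.388) turned to the other side of 1; that name then covered 770 saline cells of another cluster. Over all alternatives Ptgs2 ranged from 0.609 to 2.10 there. Among members within classes, 16 calls were lost over all alternatives, 19 were gained with the direction kept, and the 2 values just named turned and met a call. In alveolar fibroblast-like cells the finer clustering added calls for Ptgs2 (8.14), Ptger3 (3.85) and Ptgfr (0.273). Proliferating Ptges gained a call in 5 alternatives (2.03 to 2.60) and peribronchial Ptgs1 in 1 (2.22). Joining the Tpm3-rs7 and Cxcl9 cluster with the alveolar class, chosen after seeing the data, gave 1.71 for Ptgs1. The causes were not tested. In the main setting Hpgd and Ptger2 stayed under 10 CPM over all mesenchymal cells, and doublets remain in the bleomycin library.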
